A study of Mus musculus with 2 samples.

Results

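The microRNA loci Mir6896 to Mir7093 are a block of mouse loci, most of which lie in introns of protein-coding genes. Members were all rows of the deposited gene tables whose Ensembl identifier, without its version, maps in GENCODE M21 to a symbol from Mir6896 to Mir7093. The rule found 177 of 1973 loci. GENCODE M21 lists 199 loci of the block, and the other 22 were not analysed here. The rule used names alone and no measured value.

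Small RNA under 30 nucleotides was sequenced from total RNA of hindbrain of strain B6NCrl at embryonic day 14.5, as 1 group of 2 replicate libraries with no treatment and no other condition. Tissue of replicate 1 was collected on 24 July 2014 and that of replicate 2 on 30 July 2014. One label describes each sample as a single hindbrain and another as pooled sexes, and both samples carry 1 donor label, so whether they come from separate animals is not settled, and every SD and p-value below speaks of the spread of these libraries alone, which may be technical. Replicate 1 held 5826676 counts on loci and replicate 2 held 6667238. The hindbrain marker Mir10a had 96400 ± 17074 CPM (counts per 1000000 counts on loci; mean ± SD, n = 2), the endothelial Mir126a 34235 ± 3467 CPM and the liver marker Mir122 14.7 ± 1.43 CPM. The skeletal muscle marker Mir206 had 15.6 ± 0.896 CPM. Among neural loci, Mir137 had 10171 ± 671 CPM, Mir153 2259 ± 416 CPM and Mir128-1 1781 ± 169 CPM. Of the neural Mir9 loci, Mir9-3 had 516 ± 15.3 CPM and Mir9-2 1.52 ± 0.0316 CPM. Loci with near-identical copies are undercounted, since reads that mapped to several places (33.9% and 34.3% of all reads) were not assigned: the 3 loci of the neuronal Mir124a had means of 1.03 to 7.75 CPM, and 0 counts at the muscle loci Mir1a-1 and Mir133a-1 are uncertain for that reason.

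Most animal microRNAs are cut from a longer transcript by the nuclease Drosha, exported as a hairpin and cut again by Dicer into a duplex of a 5p and a 3p arm. A mirtron skips the Drosha step: the hairpin is a whole short intron, released by splicing and opening of the lariat. In a tailed mirtron only one end of the hairpin is set by splicing, and the remaining intron sequence has to be removed before Dicer can act. The seed of a microRNA, bases 2 to 8 of the mature strand, is the part that chiefly pairs with target transcripts.

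The hairpins of the members with the most counts show both arrangements. RefSeq gives them on GRCm38.p6, and they are written 5′ to 3′ on the transcribed strand with the annotated mature arms in capitals. Mir6944 is the whole 96-base intron of Dbn1 at chr13:55477681-55477776 and Mir6958 the whole 73-base intron of Dennd6b at chr15:89185465-89185537. Mir6897 is the last 62 bases of a 1780-base intron of Uggt1, at chr1:36144252-36144313. All 3 lie on the minus strand.

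Mir6944: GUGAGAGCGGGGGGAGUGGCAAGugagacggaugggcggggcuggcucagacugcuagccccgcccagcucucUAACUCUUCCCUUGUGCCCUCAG
Mir6958: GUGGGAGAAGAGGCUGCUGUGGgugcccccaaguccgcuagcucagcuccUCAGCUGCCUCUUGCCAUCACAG
Mir6897: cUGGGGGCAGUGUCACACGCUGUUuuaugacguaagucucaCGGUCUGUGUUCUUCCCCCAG

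The hairpins of Mir6944 and Mir6958 begin with GU, the letters of a splice donor, and end with AG, the letters of a splice acceptor. That of Mir6897 begins with CU and ends with AG.

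The 3p arms of 11 of the 12 members with the highest mean level follow, since their shared end is the feature most members have in common. RefSeq's table gives no entry for the remaining member, Mir6951. Capitals mark the seed.

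mmu-miR-6944-3p: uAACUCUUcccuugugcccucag
mmu-miR-6958-3p: uCAGCUGCcucuugccaucacag
mmu-miR-6897-3p: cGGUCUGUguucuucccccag
mmu-miR-6928-3p: aAGCUGUUccuguacucuccag
mmu-miR-6977-3p: aAGGCGUUgccugacccugacc
mmu-miR-7083-3p: uCUGCUCUccuggaccccag
mmu-miR-6900-3p: uGGUGAUGggcucucuuguag
mmu-miR-7059-3p: uGUUUGCUguuuguccucccag
mmu-miR-7066-3p: uCUACCCAuugccugccucccag
mmu-miR-6935-3p: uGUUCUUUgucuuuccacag
mmu-miR-7026-3p: uGUGCUUUcuggucuuggcuuag

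Of these 11, miR-6977-3p alone does not end in AG. Its hairpin lies at the donor end of a 79-base intron of Ptprs, 15 bases short of the acceptor. Its 5p arm, with that of the 2 whole-intron members, starts at the intron's first base, and the 3 arms are shown for that reason.

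mmu-miR-6944-5p: gUGAGAGCggggggaguggcaag
mmu-miR-6958-5p: gUGGGAGAagaggcugcugugg
mmu-miR-6977-5p: gUGAGGCGcugugggcacggcuugg

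The introns are called short in the block's working name, and the annotation bore this out for a minority. An intron on the same strand held 170 of the 177 hairpins, in 166 host genes, with all 170 introns from protein-coding genes. These introns ran from 66 to 36269 bases with a median of 400.5, taking the shortest annotated intron at each locus, and 64 members lay in an intron of at most 200 bases. Another 57 lay in introns above 200 and up to 1000 bases and 49 in longer ones. No annotated intron held the other 7, among them Mir6903. The block is therefore named here by its symbols and not by intron length.

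The position common to the block was the acceptor end of the intron. The 3′ end of the hairpin lay within 5 bases of the intron's last base in 164 members, and exactly on it in 163. Of the 164, 15 also began within 5 bases of the donor, so the hairpin filled the intron. The other 149 had a tail of 7 to 36205 bases (median 421) between donor and hairpin. A further 4 sat at the donor end alone (Mir6927, Mir6936, Mir6973b and Mir6977), and 2 (Mir7036b and Mir7051) lay inside an intron at neither end. Among the 1796 loci outside the block, 36 had the hairpin at the acceptor and 8 filled an intron.

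RefSeq listed mature arms for 162 of the 177 members, 310 arms of 18 to 26 bases with a median of 22. Of the 154 3p arms, 121 (78.6%) ended in AG and 108 in CAG, and 115 ended on the last base of the host intron. Of the 554 3p arms outside the block, 59 (10.6%) ended in AG. The 3p arms of members had a median of 71.4% pyrimidines and the 5p arms 31.8%, while the 3p arms outside the block had a median of 54.5%. A pyrimidine-rich tract precedes most splice acceptors, and the 3p arms of most members end where the intron ends. The hairpins were short, 52 to 137 bases with a median of 66 (90 over all loci), with a median GC content of 57.8% (51.0% over all loci). The 36 loci outside the block at the acceptor end had similar medians, 66 bases and 58.0%.

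Seeds within the block were mostly different. The 310 arms had 285 seeds, of which 21 occurred in more than 1 member and none in more than 3. The seed CACCCUG stood in the 3p arms of Mir7018, Mir7023 and Mir7068, and GGGGAGG in the 5p arms of Mir7030, Mir7075 and Mir7076. A mature arm outside the block had the same seed as a member for 38 seeds, in 47 members. The seed of miR-6958-5p, UGGGAGA, is also that of miR-30c-1-3p and miR-30c-2-3p, the minor arms of miR-30c. The 2 loci of miR-30c had 104 CPM together, a value that leaves out reads mapped to several places. The tables count whole hairpins, so no count could be assigned to an arm or a seed.

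Counts on the members were widespread and low. At least 1 count in either library was found for 140 of the 177 members (79.1%), against a background of 37.7% of all 1973 loci. Detection was set at 10 counts or more in each of the libraries, 1.72 CPM in replicate 1 and 1.5 CPM in replicate 2. Of the members 22 (12.4%) were detected, against a background of 20.3% of all loci. The share of members with a count thus stood above the background and the share detected below it, as a description of these libraries without a test. That background holds 931 loci without a symbol of Mir and a number, of which 6.12% had a count and 1.40% were detected. Of the 865 loci outside the block with such a symbol, 63.1% had a count and 42.3% were detected. The median summed count of a member was 4, with an interquartile range of 1 to 11, and that over all loci was 0.

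**Figure D1:**
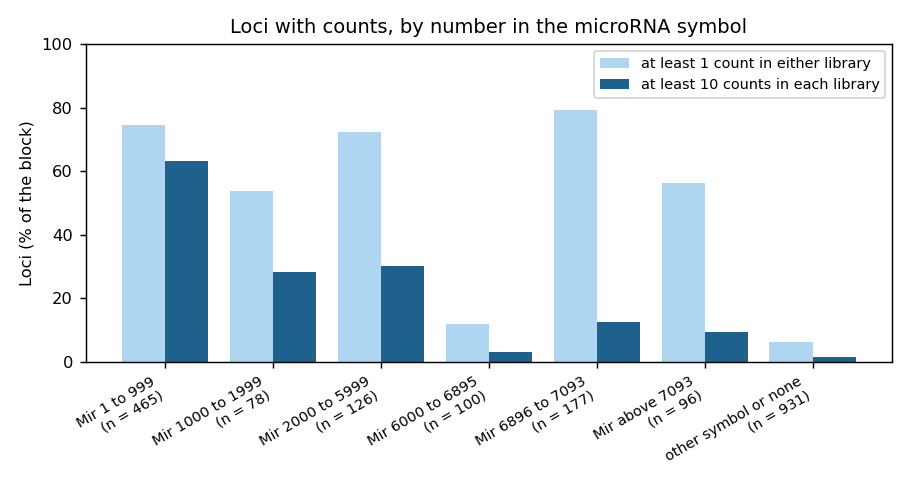
Percentage of loci with at least 1 count in either library (light bars) and with at least 10 counts in each library (dark bars), by the number in the microRNA symbol, with the number of loci in brackets. For Mir6896 to Mir7093 the light bar is at 79.1% and the dark bar at 12.4%, while for Mir1 to Mir999 they are at 74.6% and 63.2%.

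The plot of loci by number sets the block beside others. Mir1 to Mir999, which include the conserved brain microRNAs, had counts in 74.6% and were detected in 63.2% of 465 loci. Mir6000 to Mir6895, directly before the block, had counts in 12 and were detected in 3 of 100 loci. Loci beyond Mir7093 had counts in 56.2% and were detected in 9.38% of 96 loci. The share of members with a count was thus close to that of Mir1 to Mir999. The level was far lower: the median summed count was 460 for Mir1 to Mir999. Reads that mapped to several places were not assigned, so loci with near-identical copies can lower the share of Mir1 to Mir999. Mir1a-1 had 0 counts in each library, while a run shared with another listed hairpin was found for 2 members. How close the shares are is uncertain for that reason.

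Together the members held 1092 counts in replicate 1 and 1232 in replicate 2. This was 0.0187% of counts in replicate 1, with an exact 95% Clopper-Pearson range of 0.0176% to 0.0199%. It was 0.0185% in replicate 2, with a range of 0.0175% to 0.0195%, and 0.0186% ± 0.000186 as a mean (SD, n = 2). Intervals and limits here cover counting error only, since reads carried no molecular identifiers. The 22 detected members held 64.4% ± 1.04 of the block's counts (SD, n = 2). Mir6944 alone held 28.5% ± 1.70, and without it the block held 0.0133% of counts on loci.

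Summed over both libraries, 37 members had no count, 30 had 1 or 2, 55 had 3 to 9, 28 had 10 to 19, 7 had 20 to 29 and 19 had 30 to 99. Mir6944 with 660 was the one member above that. For a member with no count, the upper limit from 3 counts per library is 0.515 CPM for replicate 1 and 0.450 CPM for replicate 2. The opposite strand held 0 counts over all members in replicate 1 and 1 in replicate 2, at Mir6966. The members' reads were thus almost all on the strand of the host transcript. Counts of whole hairpins cannot tell reads of mature arms from other pieces of the host intron on that strand. A run of 20 bases shared with another listed hairpin was found for 2 members, Mir6970 and Mir7065, whose summed counts of 2 and 0 are uncertain because such reads were not assigned.

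Mir6944 was the member with the highest level. It fills an intron of Dbn1, which encodes drebrin, an actin-binding protein of dendritic spines and growing neurites. It had 324 counts in replicate 1 and 336 in replicate 2, which is 55.6 CPM (exact 95% Poisson interval 49.7 to 62.0) and 50.4 CPM (45.2 to 56.1). The mean of 53.0 ± 3.68 CPM (SD, n = 2) placed it at rank 242 of the 1973 loci.

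The next members were about an order of magnitude lower. Mir6958, which fills an intron of Dennd6b, a gene for a DENN-domain protein, had 41 and 32 counts and 5.92 ± 1.58 CPM (SD, n = 2). Its intervals, 5.05 to 9.55 CPM in replicate 1 and 3.28 to 6.78 CPM in replicate 2, overlapped those of the 3 members that follow but not those of Mir6944. Its intron is also part of an exon in annotated retained-intron and nonsense-mediated decay transcripts of Dennd6b.

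Mir6897, at the acceptor end of an intron of Uggt1, the sensor of misfolded glycoproteins in the endoplasmic reticulum, had 38 and 35 counts and 5.89 ± 0.900 CPM (SD, n = 2). Mir6928 lies at chr11:101030340-101030409 at the acceptor end of a 1151-base intron of Atp6v0a1, a membrane subunit of the vacuolar proton pump. It had 26 and 30 counts and 4.48 ± 0.0264 CPM. Mir6977 of Ptprs, a receptor tyrosine phosphatase of neurons, had 27 counts in each library and 4.34 ± 0.413 CPM, and was the one detected member away from the acceptor.

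The other 7 of the 12 leading members had means from 2.79 to 3.86 CPM, all at the acceptor end of their introns. Mir7083 of Dock6, a guanine nucleotide exchange factor, had 24 counts in each library, and Mir6900 of Ndufa10, a subunit of respiratory complex I, had 20 and 23. Mir6951 of Azin1, an inhibitor of antizyme in polyamine control, had 19 and 22 counts, from a hairpin with a GC content of 25.3%. Mir7059 of Cln3, a lysosomal membrane protein, had 18 and 23 counts.

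Mir7066 lies in an intron of Ncan, which encodes neurocan, a proteoglycan of the brain's extracellular matrix. It had 13 counts in replicate 1 and 28 in replicate 2, the widest spread among the 12 leading members by count. Mir6935 of Actg1, gamma-actin, had 16 and 19 counts, and its hairpin is also part of an exon in a retained-intron transcript. Mir7026 of Ep400, a chromatin remodeller, had 15 and 20 counts. Neighbours among these 7 members did not differ beyond their counting intervals.

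**Figure D2:**
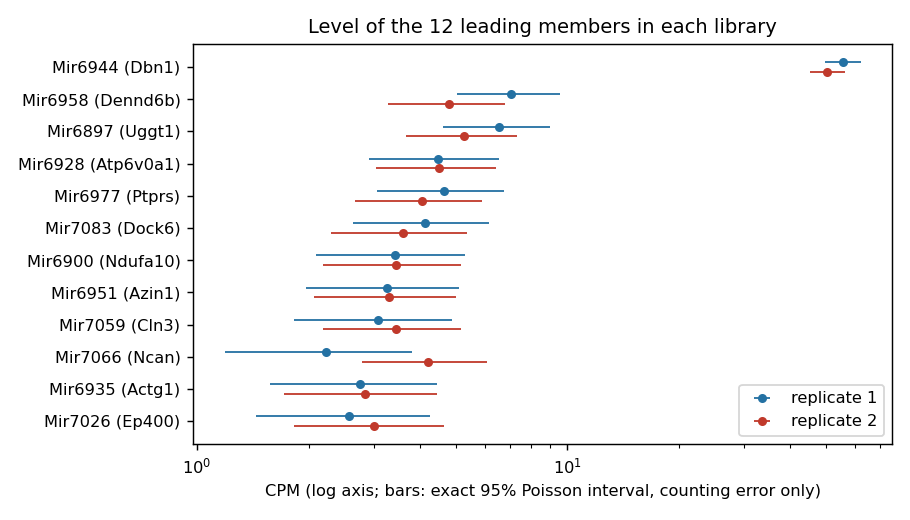
Level of the 12 members with the highest mean (host gene in brackets) in replicate 1 (blue) and replicate 2 (red), as CPM on a log axis with exact 95% Poisson intervals for counting error. Mir6944 stands at 55.6 and 50.4 CPM, and the other 11 lie at or below 7.04 CPM, with intervals that overlap between the libraries.

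The remaining 10 detected members had means from 1.83 to 2.64 CPM. Among them were Mir6971 of the RNA helicase gene Skiv2l, Mir7019 of the mitochondrial kinase gene Pink1, Mir7043 of Rassf4, Mir6991 of 2700081O15Rik, Mir7069 of the tRNA synthetase gene Farsa, Mir6975 of the splicing and export helicase gene Ddx39b, Mir6979 of the formin gene Diaph1, Mir6988 of the ubiquitin ligase gene Syvn1 and Mir6945 of Pdlim7. Mir6945, with 10 and 13 counts, lay just inside the threshold. Mir6934 of Tbc1d16, with 17 and 9 counts, and Mir7063 of Ap2a2, with 9 and 12, lay just outside it. The hairpins of Mir7019 and Mir6945 also lie in an exon of an annotated protein-coding transcript, so reads of a spliced transcript cannot be told apart there. Counting intervals of neighbours below Mir6944 overlapped in both libraries, as the plot of levels shows for the 12 leading members, so their order is not resolved at this depth.

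By arrangement and intron length, shares of members with counts were near each other. Of the 15 members that fill an intron 11 had a count and 2 were detected, and of the 149 at the acceptor end alone 118 had a count and 19 were detected. All 4 at the donor end had a count. The median summed count was 4 for both larger classes. Members in introns of at most 200 bases had counts in 81.2%, those in introns above 200 and up to 1000 bases in 80.7%, and those in longer introns in 75.5%, with medians of 5.5, 4 and 3 counts. Detection did not fall in that order: 12.5%, 10.5% and 16.3% of these classes were detected. Detected members had a median GC content of 59.1%, members with fewer counts 58.4% and members without counts 56.7%. Their median fold energies per base, computed with RNAfold, were -0.42, -0.40 and -0.40 kcal/mol. None of these differences was tested.

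**Figure D3:**
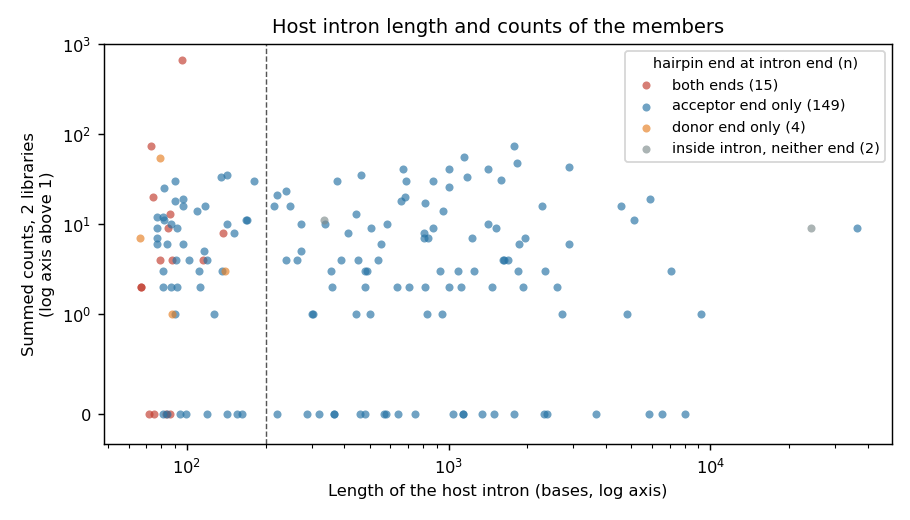
Summed counts of the 170 members held by an intron (log axis above 1) against the length of that intron (log axis), coloured by which hairpin end lies within 5 bases of an intron end. The dashed line marks 200 bases. Members with no count and members with more than 10 occur at both sides of the line, and Mir6944 stands alone at 660 counts in a 96-base intron.

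The block was set beside loci outside it with the same position, as a description without a test. Of 8 loci that fill an intron 6 were detected, with a median summed count of 307, against 2 of 15 members and a median of 4. The highest was Mir877 in an intron of Abcf1, a known mirtron, with 459 and 474 counts and 74.9 ± 5.43 CPM (SD, n = 2). Mir1981 of Marc2 followed with 54.6 ± 3.41 CPM, Mir3102 of Arhgef17 with 46.2 ± 0.889 CPM, Mir1224 of Vwa5b2, also a known mirtron, with 41.1 ± 3.22 CPM and Mir3547 of Baiap3 with 7.97 ± 0.871 CPM. The other 3 loci were Mir1982 of Oaz1 with a mean of 6.32 CPM, Gm24589 of Pkd1 with 0 and 2 counts, and Gm27471 of Skiv2l-ps1, which had no count and also shares a run of bases with another listed hairpin. The mean of Mir6944 lay between those of Mir1981 and Mir3102, and that of Mir6958 below that of Mir1982. Of the 28 loci outside the block at the acceptor end alone, 7 were detected, against 19 of 149 members (12.8%). These sets differ: 14 of the 28 ended exactly on the intron's last base, against 148 of the 149 members. The highest of the 28 was Mir382 of Mirg, with 79616 summed counts and a hairpin that overhangs the intron by 2 bases.

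The host genes of members with and without counts are described here by examples chosen after the values were seen, with no test. Hosts of detected members include general cell genes (Actg1, Ndufa10, Farsa, Ddx39b) and neural genes (Dbn1, Ncan, Ptprs). The 37 members without a count include Mir6974 of Lta and Mir6973a of Ltb, which encode lymphotoxins, and Mir7058 of Lat, an adaptor of T cells. They also include Mir7086 of Il10ra, an interleukin receptor chain, Mir6949 of the protease gene Mcpt8, Mir6978 of complement C3 and Mir6972 of complement factor gene Cfb. Others were Mir6969 of Clps and Mir7076 of Ctrb1, genes of a lipase cofactor and a digestive enzyme of the pancreas, and Mir6923 of Myh3, a skeletal muscle myosin. The same set also holds Mir6982 of Camk2a, a kinase gene of neurons, and the general cell genes Cul4a, Pold1 and Stx5a as hosts of Mir7065, Mir7053 and Mir6992, while Mir6983 of Csf1r, a receptor gene of microglia and macrophages, had 2 counts in each library. Host transcripts were not measured in these libraries. The red cell locus Mir451a had 274 ± 56.8 CPM and the myeloid Mir223 201.4 ± 10.04 CPM (SD, n = 2), so markers of blood cells had counts, and their part in the members' counts was not tested.

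Several members shared a host in 4 genes. In Skiv2l, Mir6971 had 15 and 18 counts while Mir6970, which fills a 67-base intron of the same gene, had 2 and 0. In Arap3, Mir6981 had 0 and 4 counts and Mir6980 had 2 and 1. In Srebf1, a regulator of lipid synthesis, Mir6921 had 5 and 1 counts and Mir6922 had 0 and 1. In Cmip, Mir7077 had 5 and 2 counts and Mir7078 had none. The low count of Mir6970 is uncertain, since its hairpin shares a run of bases with another listed locus and reads that mapped to several places were not assigned. In the other 3 genes the counts were too low to tell the pair apart.

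The replicate libraries gave similar counts for the members. A count was found in both libraries for 113 members, in replicate 1 alone for 9, with at most 7 counts, and in replicate 2 alone for 18, with at most 4. Across the 177 members Spearman's rho of the counts was 0.849, a description across loci of shared libraries. The summed counts gave a log2 ratio of replicate 2 over replicate 1 of -0.06 (exact 95% interval -0.17 to 0.06), an interval that includes 0.

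Of 55 members with a summed count of at least 10, an exact binomial test with Benjamini-Hochberg adjustment over 498 loci called 1, against a background of 32.5% of the loci tested. The loci tested reach far higher counts than the members. Among 120 loci outside the block with summed counts of 10 to 73, the range of the members below Mir6944, 7 were called, against 1 of 54 members in that range. The called member was Mir6985 of Ssh3, a phosphatase gene of the cofilin pathway, at chr19:4263818-4263878. It had 3 counts in replicate 1 and 15 in replicate 2, a log2 ratio of 1.92 (exact 95% interval 0.27 to 4.52, adjusted p = 0.0491 by the binomial test). With the common dispersion of edgeR allowed for, its adjusted p was 0.487 by edgeR's exact test. That test called 0 members (1 at an unadjusted p under 0.05), against a background of 7 of the 498 loci. The dispersion was estimated from these same libraries taken as 1 group. Their own difference entered it, which limits the calls this test could make. Both tests compare these libraries and no conditions, and collection day cannot be told apart from replicate.

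Mir6944 had a log2 ratio of -0.18 (-0.40 to 0.05), Mir6958 of -0.58 (-1.30 to 0.12) and Mir7066 of 0.85 (-0.12 to 1.95), and none of these passed the binomial test. Over the 55 members the ratio ran from -1.33 to 1.92 with a median of -0.02 (0.02 over all 498 loci), 27 above 0 and 28 below. The width of these intervals limits what could be seen for a single member.

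**Figure D4:**
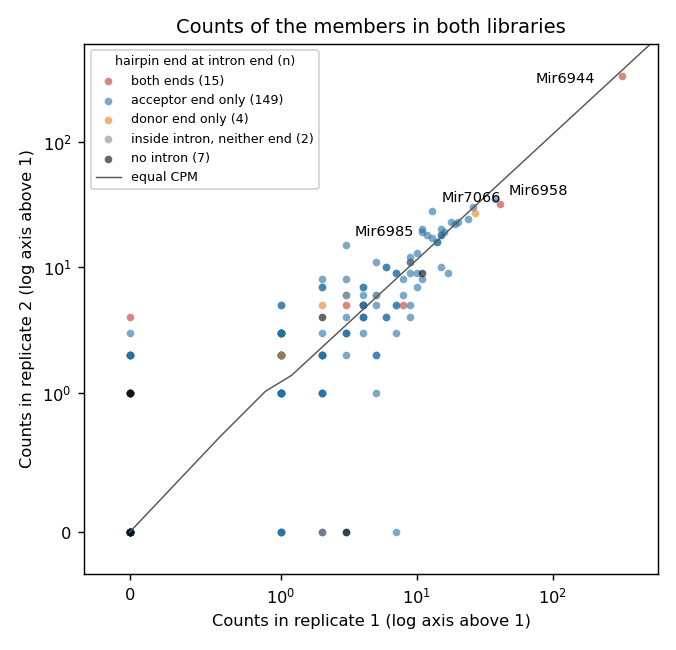
Counts of the 177 members in replicate 1 and replicate 2 (both axes logarithmic above 1), coloured by which hairpin end lies within 5 bases of an intron end. The line marks equal CPM. Mir6944, at 324 and 336 counts, lies near the line, and Mir6985, at 3 and 15 counts, lies above it.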

How the data were processed

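The deposited tables hold the authors' raw counts of reads on each microRNA locus, for both strands together and for each strand. Per the notes deposited beside them, the build was mm10 with annotation M4. The sources used here name neither aligner nor counting program. Column 3, with 98.0% and 97.8% of counts on loci, was taken as the gene strand. Reads not assigned to a locus (49.6% and 52.5% of all reads) were left out. They mapped to several places (33.9% and 34.3%), were unmapped (13.8% and 15.9%) or mapped to no listed locus (1.99% and 2.26%). Symbols were matched for 1894 of 1973 loci through GENCODE M21 (GRCm38, the files' build), which also gave hairpins and introns. The host intron was the shortest on the same strand that held the hairpin, which could overhang by 5 bases. Mature sequences came from RefSeq (GRCm38.p6).

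CPM divided by counts on loci. Loci with 10 or more counts in sum were tested between libraries with an exact two-sided binomial test on edgeR's TMM sizes, adjusted over all of them at 0.05. Log2 ratios added 0.5 to each count, while the exact intervals of single members were computed from the counts without it. With each library as its own group, edgeR's quasi-likelihood test is left without residual degrees of freedom. The binomial test alone was run on simulated Poisson counts, with library totals as sizes. Those counts had no spread beyond counting error, so the run cannot show how the test behaves where libraries differ more. The block and the lists were chosen for description with earlier results of these data known, although the rule for members reads names alone, and the acceptor-end class after the annotation was seen. Named were detected members (the 12 highest in full), called members and 5 whole-intron loci outside the block; others were named after their values were seen. One detected member is not reported by name here. Alternatives covered count minimum, strand, denominator, scaling, filters and distances. Software was Python 3.11.15, scipy 1.17.1, R 4.3.3, edgeR 4.0.16, DESeq2 1.42.0 and RNAfold 2.7.2.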

Additional observations from a re-analysis of the deposited data

How the results depend on the processing

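The number of detected members followed the count minimum: 113 with at least 1 count in each library, 69 with 3, 45 with 5 and 3 with 30, against 22 with 10. It was 0 on the opposite strand, and 27 to 29 with 1 replicate left out. The members' share of 0.0186% became 0.00892% of all reads, 0.0182% with both strands, 0.000333% on the opposite strand and 0.0133% without Mir6944, and stayed within 0.0185% to 0.0187% with 1 replicate left out. The 1 call between libraries became 0 with a summed count of at least 30, where Mir6985 is not tested, and 0 with edgeR's common dispersion. Its adjusted p was 0.0453 to 0.0491 over the scalings tried. Log2 ratios near 0 changed sign without a call: with library totals those of Mir6928 (0.0084), Mir6900 (0.00262) and Mir6951 (0.0120), and that of Mir6935 with DESeq2 size factors (-0.00692) and upper quartile (-0.0461). With limits of 120 and 500 bases, 50 and 96 members lay in short introns. Counts of members at both splice sites (14 to 18), at the acceptor end (164 to 165) and with any count (110 to 131) stayed within 1.5 times the main value under the alternatives run; those for the last 2 were chosen after seeing the data.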
